A study of Mus musculus with 8 samples.

Results

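Pro-B and pre-B cells were taken from a pooled table of single-cell transcript counts by a threshold rule. A cell was a member if it held at least 2 UMIs (unique molecular identifiers, each standing for 1 captured transcript) of Cd79a and at least 3 UMIs summed over Vpreb1, Igll1 and Vpreb3. It also had to hold 0 UMIs of Ighd, the constant region of IgD on mature B cells, and 0 of Siglech, a receptor of plasmacytoid dendritic cells. The rule found 425 of 24942 cells, 1.70% (exact binomial 95% interval 1.55 to 1.87).

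The cells came from erythroblastic islands, the clusters in which red cell precursors mature around a central macrophage. All mice were males of the lupus-prone Sle1.Yaa strain. Mice with a human TLR8 transgene, labelled anemic, gave 2 bone marrow and 2 spleen libraries, and Sle1.Yaa controls, labelled non-anemic, gave 3 bone marrow libraries and 1 spleen library. The labels give no promoter for the transgene and no age, and they do not say whether libraries of 1 group came from separate animals. Islands were enriched on albumin gradients and taken apart with EDTA and light mechanical force before 10x Genomics v3.1 sequencing. No sort for B lineage cells is described.

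Nothing in the table tied a cell to a library, so the cells were described as 1 pooled sample and no genotype or tissue was compared. The sorted order of the barcodes restarted 7 times, which left 8 stretches of cells, called runs 1 to 8 here. Runs were used to give ranges and were not named for a tissue or genotype. Of the 24942 cells, 1031 had a barcode that also occurred in another run, and 10 of these were members. Members had a median of 4043 UMIs (600 to 83490) and 1662 genes per cell, against 7554 UMIs and 1584 genes over all cells.

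Early B cells assemble antibody genes in a fixed order. Pro-B cells join the heavy chain segments with the RAG recombinase, and terminal deoxynucleotidyl transferase (Dntt) adds bases at the joints. A finished μ heavy chain is then tested with the surrogate light chain, a stand-in built from VpreB and λ5 (Igll1), which forms the pre-B receptor with the Cd79a and Cd79b signalling chains. Signals from this receptor and from the interleukin 7 receptor drive a burst of division, after which pre-B cells leave the cycle, shut down the surrogate light chain, bring back RAG and rearrange a κ or λ light chain.

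The 3 summed genes lie at 2 loci. In the GENCODE M21 annotation of GRCm38, Vpreb1 spans chr16:16868403-16870843 and Igll1 spans chr16:16860671-16863985, both on the minus strand, as close neighbours. Vpreb3, whose protein binds μ heavy chains inside the cell, lies apart at chr10:75943057-75949657 on the plus strand. The 250 bases before each RefSeq start (GRCm38.p6) are shown because the members split by these loci. The windows are chr16:16869256-16869505 for Vpreb1 and chr16:16863986-16864235 for Igll1, both minus strand, and chr10:75948050-75948299 for Vpreb3, plus strand. All are upstream of the RefSeq start, but the Vpreb1 and Vpreb3 windows lie inside the GENCODE spans of their genes. A Vpreb1 exon of another GENCODE transcript lies in the Vpreb1 window. Capitals mark matches to CAGGTG (an E-box, bound by E2A proteins) or ATTTGCAT (the octamer, bound by Oct factors), searched on both strands.
Vpreb1: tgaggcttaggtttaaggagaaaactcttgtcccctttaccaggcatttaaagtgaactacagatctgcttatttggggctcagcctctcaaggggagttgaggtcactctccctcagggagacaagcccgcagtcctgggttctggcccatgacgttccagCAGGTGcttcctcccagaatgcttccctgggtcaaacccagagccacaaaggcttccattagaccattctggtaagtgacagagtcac
Igll1: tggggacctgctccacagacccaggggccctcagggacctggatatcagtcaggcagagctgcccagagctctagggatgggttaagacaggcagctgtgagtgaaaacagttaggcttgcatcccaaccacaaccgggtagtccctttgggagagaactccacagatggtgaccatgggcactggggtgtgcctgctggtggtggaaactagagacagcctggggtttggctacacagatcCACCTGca
Vpreb3: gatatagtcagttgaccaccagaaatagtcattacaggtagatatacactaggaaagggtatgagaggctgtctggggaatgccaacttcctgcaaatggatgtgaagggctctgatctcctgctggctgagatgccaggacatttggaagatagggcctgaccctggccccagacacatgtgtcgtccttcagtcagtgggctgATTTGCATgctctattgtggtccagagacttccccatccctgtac
The E-box stood 88 to 83 bases before the Vpreb1 start, and its reverse complement CACCTG stood 8 to 3 bases before the Igll1 start. The octamer stood 45 to 38 bases before the Vpreb3 start. Over 32851 RefSeq windows of the same length, 17.2% held the E-box and 1.60% the octamer. These matches are letters in a window and show no binding.

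The genes that chose the members are given as description. Cd79a had a median of 9 UMIs per member (2 to 67). Vpreb3 was found in 423 members (99.5%), with a median of 10 and a highest count of 84 UMIs. Vpreb1 was found in 107 members (25.2%, up to 53 UMIs) and Igll1 in 94 (22.1%, up to 35 UMIs). The rule was therefore met by Vpreb3 alone in 310 members. Just inside the threshold, 42 members had a sum of 3, with a median depth of 2000.5 UMIs per cell, and just outside it 47 cells had a sum of 2, with a median depth of 4415. For Cd79a, 23 members had 2 UMIs and 11 cells that met every other criterion had 1. Ighd alone kept out 166 cells, and Siglech kept out 1.

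Members were unevenly spread over the runs. Runs 3, 4 and 6 held 104, 136 and 129 members, which were 2.48%, 3.21% and 1.90% of their cells. Runs 1, 2 and 8 held 20, 22 and 10 members (0.916%, 0.899% and 2.24%), and run 5 held 4 (0.138%). Run 7 held 0 of 1743 cells, for which the exact interval reaches 0.211%. Mature B cells, taken as cells with at least 2 UMIs of Cd79a, at least 1 of Ighd, a surrogate light chain sum under 3 and no Siglech, numbered 426 and occurred in all 8 runs, from 11 cells in run 7 to 118 in run 1.

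**Figure D1:**
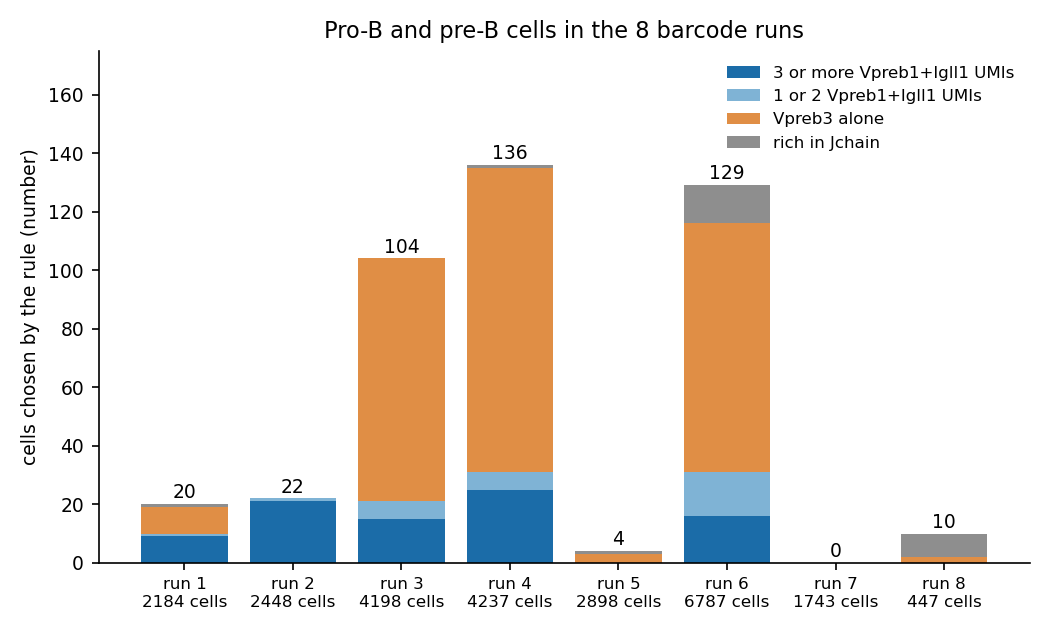
Number of members in each of the 8 barcode runs (bars), split by their Vpreb1+Igll1 UMIs and by Jchain content. Runs 3, 4 and 6 held 104, 136 and 129 of the 425 members, run 2 held almost only cells with 3 or more Vpreb1+Igll1 UMIs, and 8 of the 10 members of run 8 were rich in Jchain.

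The label was checked against other markers, and 24 members went against it by their plasma cell transcripts. These cells held 384 to 4438 UMIs of Jchain, the chain that joins IgM and IgA multimers, while no other member held more than 14. Their median depth was 26993.5 UMIs, and together they supplied 26.6% of all member UMIs. Igkc, the κ constant region, made up a median of 49.7% of their UMIs (0.0404 to 58.4), against 0.291% (0 to 3.98) in the other 401 members. The summed level of 6 plasma cell markers (Jchain, Sdc1, Xbp1, Prdm1, Mzb1 and Tnfrsf17) was 48454 CPM (counts per 1e6 UMIs), against 729 CPM in the other members. Igha reached 63294 CPM and Ighg1 35939 CPM in these cells, against 37.2 and 4.03 CPM in the others.

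Early B cell genes were at or near 0 in the same 24 cells. Pax5, Rag1, Dntt and Il7r had 0 UMIs, Sox4 had 1 UMI and Ebf1 19.8 CPM, against 3043 CPM of Ebf1 in the other 401 members. Vpreb3 stood at 3 to 22 UMIs per cell, a median of 1.95 per 10000 UMIs against 28.0 per 10000 in the others. These cells met the rule at a high depth, and whether they were doublets was not tested. Run 6 held 13 of them and run 8 held 8. They are called Jchain-rich members here, and results are given without them where they moved a count by over 1.5 times. Leaving them out scaled the level of a gene that they lacked by 1.36.

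Among the other 401 members, 86 held 3 or more UMIs of Vpreb1 and Igll1 together, 29 held 1 or 2, and 286 held none. Their median depths were 6753.5, 4605 and 3513.5 UMIs per cell. The label was less sure for the 286 cells. Their summed level of 6 mature B cell markers, with Ighd at 0 by the rule, was 454 CPM. It was 37.9 CPM in the 86 cells and 2973 CPM in mature B cells. Whether some of the 286 cells had passed the pre-B stage was not tested. Pooled levels of the 86 cells were set against those of the 286 cells with Vpreb3 alone for 6470 genes with at least 20 CPM in either. A gene was counted as higher or lower if its level, after adding 10 CPM to both, was at least 2-fold apart with the same sign in every run that held 20 cells of both. Here that run was run 4 alone. By this rule, 277 genes (4.28%) were higher in the 86 cells and 377 (5.83%) lower. The added 10 CPM draws in the differences of low genes. All such counts describe pooled cells, and neither they nor the counting intervals cover the spread between animals.

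Dntt set these subsets apart most in the recombination list. Its level was 869 CPM (807 to 934, exact Poisson interval) in the 86 cells and 2.46 CPM in the 286 cells, a log2 ratio of 6.14. At least 1 Dntt UMI was found in 54 of 86 cells (62.8%) and 3 of 286 (1.05%), against 0.234% of 7265 globin-rich cells with a median of 8670 UMIs, in which the gene should be silent. With each cell thinned to 2000 UMIs, the shares were 51.8% of 85 cells and 0.435% of 230. None of the 29 cells with 1 or 2 surrogate light chain UMIs held Dntt. By run, the 86 cells held 1048, 831 and 901 CPM in runs 2, 3 and 4 and 23.9 CPM in run 6, so run 6 was low. The 286 cells stayed between 2.16 and 4.75 CPM in runs 3, 4 and 6.

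The recombinase itself was found in both subsets. Rag1, the catalytic subunit, stood at 123 CPM in the 86 cells and 222 CPM in the 286 cells, which did not meet the 2-fold rule. Its partner Rag2 stood at 26.1 and 17.2 CPM. Polm, a polymerase used in light chain joining in mouse, was lower in the 86 cells, with 21.3 CPM against 130.5 CPM. Over the 13 recombination and end joining genes, 9 were compared, of which 1 was higher, 2 were lower and the median log2 ratio was -0.17, against 0.02 over all genes.

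Light chain transcripts ran the other way. Igkc was 507 CPM in the 86 cells and 4963 CPM in the 286 cells, with a log2 ratio of -3.27. Per cell, the median was 2.77 Igkc UMIs per 10000 in cells with 3 or more surrogate light chain UMIs, 15.9 in cells with 1 or 2 and 42.9 in cells with none. An Igkc UMI was found in 67.4% of the 86 cells and in 62.7% of globin-rich cells, which should lack the gene and stood at 295 CPM. After thinning, 48.2% of the 86 cells and 90.9% of the 286 held Igkc, against 27.5% of globin-rich cells. The λ constant regions Iglc1 and Iglc2 were 5.92 and 0 CPM in the 86 cells, against 997 and 446 CPM in the 286 cells. These genes are near copies of each other and of Iglc3, so reads may be split between them. Ighm, the μ heavy chain, was found in all 86 cells and stood at 2598 CPM, against 6334 CPM in the 286 cells. A median of 27.8 Ighm UMIs per 10000 was found in the 86 cells and 68.6 in the 286.

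**Figure D2:**
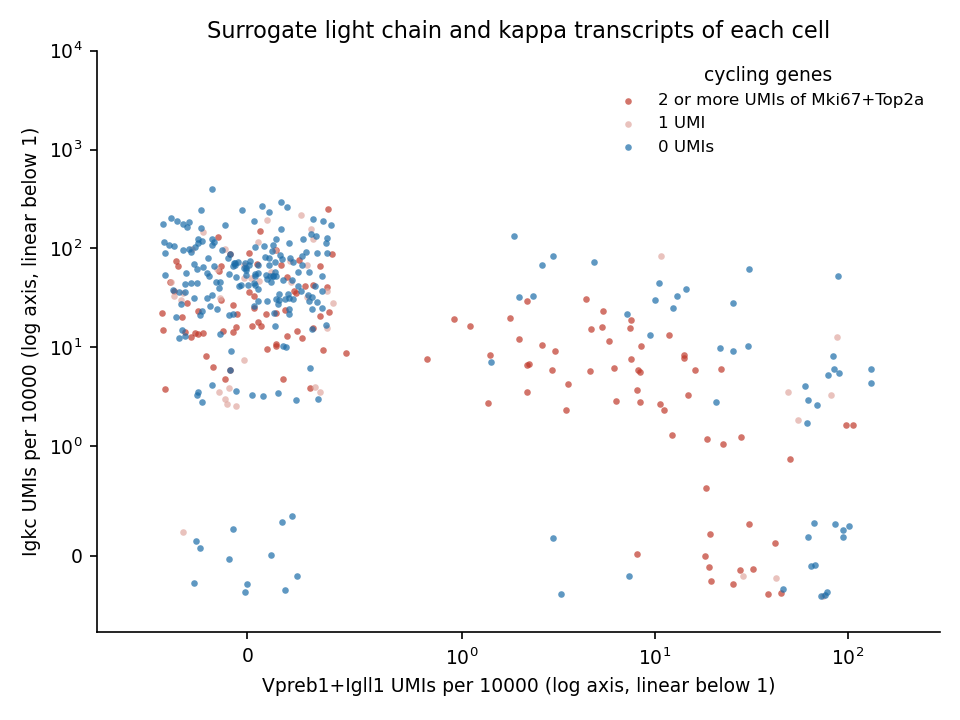
Each point is 1 of the 401 members without the Jchain-rich cells, with Vpreb1+Igll1 UMIs per 10000 on the horizontal axis and Igkc UMIs per 10000 on the vertical axis (both logarithmic above 1, with jitter at 0), coloured by UMIs of the cycling genes Mki67 and Top2a. Cells without Vpreb1 and Igll1 had a median of 42.9 Igkc UMIs per 10000 and cells with 3 or more a median of 2.77, and 18 of the 29 cells with 1 or 2 Vpreb1+Igll1 UMIs held 2 or more UMIs of the cycling genes.

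Transcription factors differed in both directions. Of 21 factors compared, 2 were higher in the 86 cells, Lef1 (351 against 68.9 CPM), a partner of β-catenin active in pro-B cells, and Erg (41.5 against 1.64 CPM), an ETS factor of early B cells. Lower in the 86 cells were 6 factors. Spib, an ETS factor, stood at 109 against 513 CPM, and Ikzf3, the Ikaros relative Aiolos, at 37.9 against 236 CPM. Irf4, which acts with Spi1 and Spib in light chain recombination, stood at 142 against 424 CPM, and the others were Bach2, Foxo1 and Sox4. The lineage factors Ebf1 (2493 against 3485 CPM) and Pax5 (395 against 619 CPM) did not meet the rule.

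Receptors and surface stage markers also differed between the subsets. Il7r, the interleukin 7 receptor chain, stood at 178 CPM in the 86 cells, 338 CPM in the 29 cells and 212 CPM in the 286 cells, and was not 2-fold apart. Il2ra (CD25), a surface marker of mouse pre-B cells, was lower in the 86 cells at 14.2 CPM, against 87.8 CPM. Cd2, another marker that mouse B cells gain at the pre-B stage, had 0 UMIs in the 86 cells and 187 CPM in the 286. Spn (CD43), carried by pro-B cells, was higher at 78.2 against 28.7 CPM. The chemokine receptor Cxcr4, which holds cells in marrow, had 134 against 423 CPM, and the sphingosine phosphate receptor S1pr1, used in leaving it, had 19.0 against 192 CPM. Of 15 genes in this list, 14 were compared, 1 was higher and 6 were lower.

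Antigen presentation genes were low in the 86 cells, with 14 of 19 compared mature B genes lower and 0 higher by the rule. Cd74, the class II invariant chain, had 206 CPM in the 86 cells and 1921 CPM in the 286 cells, and Ms4a1 (CD20) had 5.92 and 295 CPM. Replication genes were higher in 8 of 25, with a median log2 ratio of 0.80, and mitosis genes in 0 of 25, with a median of 0.34. Cdk6, a kinase that opens the cell cycle, had 267 CPM in the 86 cells, against 43.5 CPM in the 286. In the list of Myc, glycolysis and growth genes, 5 of 13 were higher and 0 lower.

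Among genes ranked by the ratio and named after their values were seen, Myl10, a myosin light chain, had 97.2 CPM in the 86 cells and 0 UMIs in the 286, and Arpp21 had 102 against 0.821 CPM. Vpreb2, a near-identical copy of Vpreb1 further along the chromosome (chr16:17980428-17981273, plus strand), had 239 CPM in the 86 cells and 0 UMIs in the 286. Its reads may be shared with Vpreb1, which chose these subsets.

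**Figure D3:**
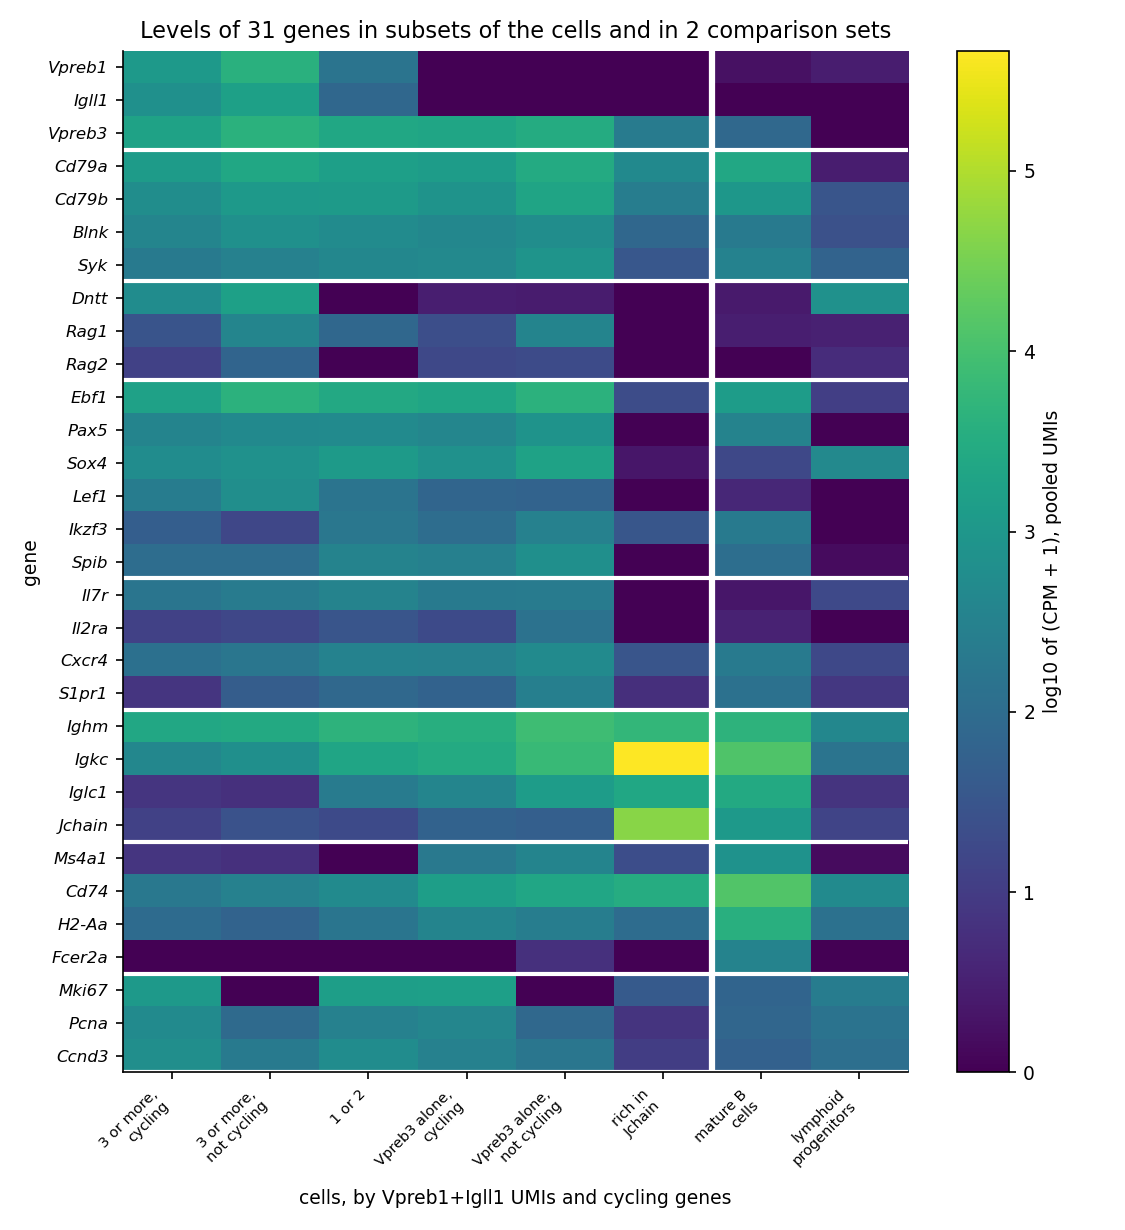
Pooled level of 31 genes as log10 of (CPM + 1) (colour) in 6 subsets of the members, then in mature B cells and lymphoid progenitors (columns right of the white line), with rows grouped by role. Dntt was bright in the columns with 3 or more Vpreb1+Igll1 UMIs and in progenitors, which were chosen by Dntt. Igkc and Jchain were bright in the Jchain-rich cells, and Rag1 in both non-cycling columns.

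Cycling cells made up 126 of the 401 members (31.4%), counted by 2 or more UMIs of Mki67 and Top2a, with 44 cells at 1 UMI and 231 at 0. Their median depth was 7849 UMIs, against 3538 in the 231 cells, called non-cycling here. After thinning, 36.5% of cells with 3 or more surrogate light chain UMIs, 65.4% of those with 1 or 2 and 23.9% of those with none were cycling. Mature B cells gave 1.54% by the same count and progenitors 21.1%.

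Between cycling and non-cycling members, 6471 genes were compared, of which 576 (8.9%) were higher and 443 (6.85%) lower by the 2-fold rule, with the sign held in runs 3, 4 and 6. The 2 genes that chose the cells were left out. Of 25 replication genes, 23 were higher with a median log2 ratio of 2.50, and of 23 mitosis genes, 22 were higher with a median of 3.32, against -0.08 over all genes. Pclaf, a partner of the replication clamp, stood at 1054 CPM in cycling and 21.8 CPM in non-cycling members. The tubulin regulator Stmn1 stood at 1852 and 98.0 CPM. Ccnd3, the cyclin that pre-B cells of mice need for their expansion, stood at 503 and 171 CPM.

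Rag1 was among the 10 genes with the lowest ratio in cycling cells. Its level was 24.4 CPM (16.5 to 34.8) in cycling and 363 CPM (323 to 406) in non-cycling members, a log2 ratio of -3.44. By run, it was 19.0 against 349.9 CPM in run 3, 38.1 against 517 CPM in run 4 and 6.36 against 111 CPM in run 6. Cycling cells were lower in each of these runs, and both values were smallest in run 6. The gap was found with and without the surrogate light chain: Rag1 stood at 28.2 against 379 CPM in the 86 cells and at 22.0 against 365 CPM in the 286. Dntt, which did not meet the rule between all cycling and non-cycling members, had in the 86 cells 566 CPM when cycling and 1683 CPM when not. This pooled gap mixes runs and was not tested within them. In run 2, the 10 cycling cells held 1021 CPM of Dntt. All 21 of the 86 cells in that run, a set that includes those 10, held 1048 CPM. Cycling members of runs 3 and 4, which include cells outside the 86, held 82.3 and 226 CPM. The cells of the 86 in those runs held 831 and 901 CPM. These sets overlap and differ in make-up, so they do not give the gap within a run. In run 6, the 16 of the 86 cells held 23.9 CPM of Dntt and 1370 CPM of Mki67.

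Other genes lower in cycling members were those of light chain and late stages. Igkc stood at 1546 against 5104 CPM, Iglc3 at 40.7 against 598 CPM and Ighm at 3075 against 6886 CPM. Il2ra stood at 13.0 against 104 CPM and S1pr1 at 29.3 against 227 CPM. Btg1, which restrains proliferation, stood at 591 against 2027 CPM, and Bmf, a death-promoting Bcl2 relative, at 11.4 against 122 CPM. Of 21 transcription factors, 8 were lower and 0 higher, among them Foxo1 (113 against 339 CPM), which turns on the Rag genes in mouse. Reln, Col5a3 and Cacna1e were also among the 10 lowest, with 0.813, 3.25 and 13.0 CPM in cycling cells against 56.9, 79.9 and 152 CPM in non-cycling cells.

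**Figure D4:**
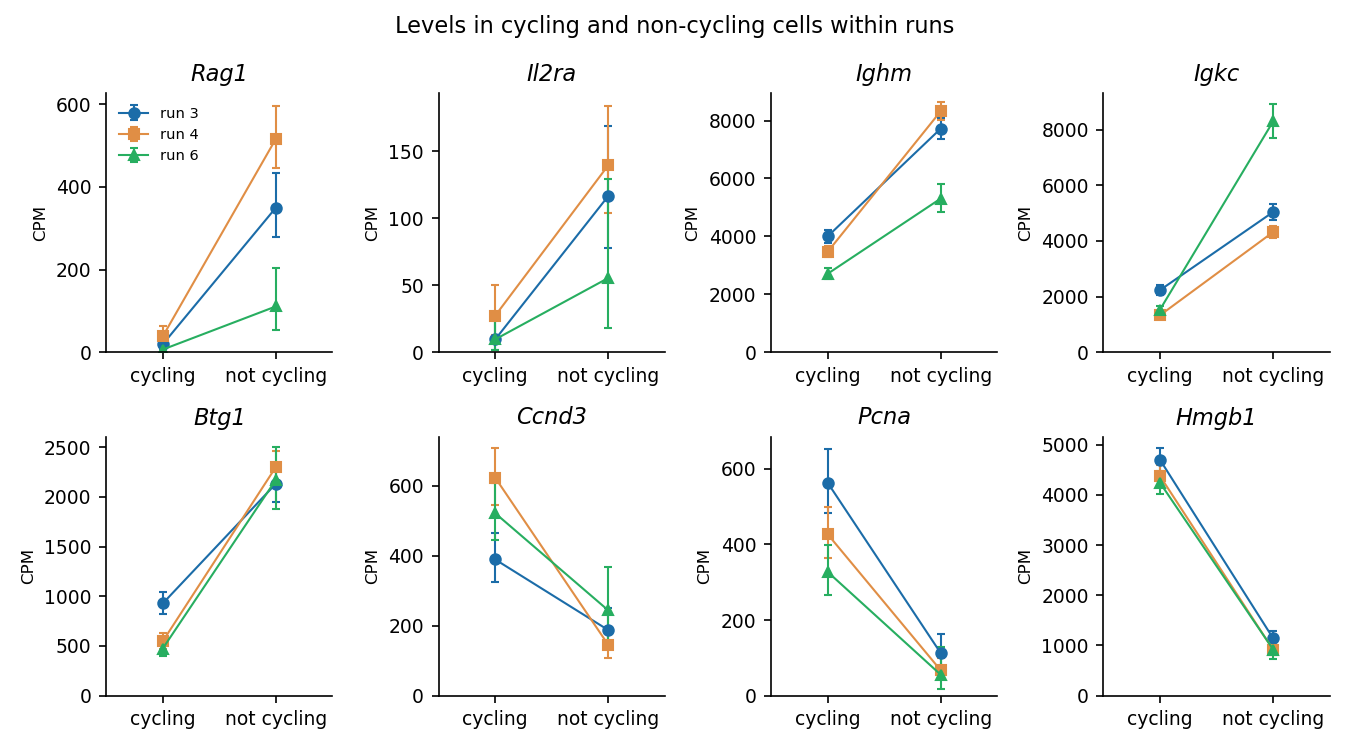
Level of 8 genes in cycling (left) and non-cycling (right) members of runs 3, 4 and 6 (lines), in CPM from 0, with exact 95% Poisson intervals as bars. Rag1, Il2ra, Ighm, Igkc and Btg1 were lower and Ccnd3, Pcna and Hmgb1 higher in cycling cells of all 3 runs.

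Against mature B cells, the 425 members were set for 5815 genes with the sign held in runs 1, 2, 3, 4 and 6. By the 2-fold rule 439 genes (7.55%) were higher and 342 (5.88%) lower. The median gene was shifted by 0.11 in log2. Without the Jchain-rich members, 818 of 6239 genes (13.1%) were higher and 265 (4.25%) lower with the sign held in runs 2, 3, 4 and 6, and the median shift was 0.38. Of the 439 genes, 430 were also among the 818, and 239 of the 342 were among the 265.

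Sox4, a factor needed for pro-B cell survival in mouse, had the highest ratio, with 766 CPM in members and 15.7 CPM in mature B cells, a log2 ratio of 4.92. Among the 401 members it stood at 1014, 440.5, 1074, 1280.1 and 1063 CPM in runs 1, 2, 3, 4 and 6, against 2.97, 0, 19.4, 68.9 and 191 CPM in mature B cells of the same runs. Members were higher in every one, and mature B cells of run 6 were the nearest. Other factors higher by the rule were Myb, Lef1, Tcf3 and Irf4, while Irf8, Bcl11a, Bcl6 and Klf2 were lower, of 21 compared. Without the Jchain-rich members Ebf1 was added to the higher ones, and Bcl6 and Klf2 no longer met the rule. Myb, a factor of blood progenitors, had 377 against 12.5 CPM, and Tcf3 (E2A) had 317 against 89.0 CPM.

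In the recombination list, Rag1, Lig4, Xrcc6 (Ku70) and Hmgb1 were higher, of 9 compared, and 0 were lower, with a median log2 ratio of 1.98. Rag1 (chr2:101638282-101649501, minus strand) had 127 CPM in members and 2.01 CPM in mature B cells. By run, the 401 members held 129, 104, 190.0, 275 and 36.0 CPM in runs 1, 2, 3, 4 and 6, and mature B cells held 13.0 and 11.2 CPM in runs 3 and 6 and 0 UMIs in the other 6. Ligase 4, which seals the broken ends, had 42.1 against 3.22 CPM, and Hmgb1, which bends DNA for the recombinase, 2148 against 488 CPM. Dntt, at 242 against 1.61 CPM, did not keep its sign in every run. After thinning, 31.1% of the 401 members and 0.257% of mature B cells held a Rag1 UMI, against 0 of 6987 globin-rich cells, for which the exact interval reaches 0.0528%.

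Growth factor receptors were mixed. Il7r had 153 CPM in members and 1.21 CPM in mature B cells, Cd93, an early B cell surface marker, 159 and 5.64 CPM, and Socs2, a feedback inhibitor of cytokine receptors, 36.2 and 6.04 CPM. Lower were Il2rg, the shared chain that pairs with Il7r, with 64.8 against 278 CPM, the kinase Jak1 and the inhibitor Socs3. Of the pre-B receptor signalling genes beside those in the rule, Akap12 (327 against 10.1 CPM), a kinase anchoring protein, and Vpreb2 met the rule as higher. Vpreb2 may share reads with Vpreb1, a gene that chose both sets, so its call may follow from that choice. The other 9 of 11, among them Cd79b, Syk, Btk and Blk, did not meet it, and the median was -0.05.

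Members held far fewer transcripts of the mature B surface. The 2 sets had been chosen apart on Ighd, a gene of mature B cells, so part of this follows from the choice. The 166 cells that Ighd alone kept out of the members were in neither set. Of 22 genes, 19 were lower and 0 higher, with a median log2 ratio of -2.94, and 18 of 22 were lower without the Jchain-rich members. Fcer2a (CD23) had 1.32 CPM in members and 339 CPM in mature B cells, and Cr2, the complement receptor CD21, 1.32 and 115 CPM. The class II chains H2-Aa and H2-Eb1 had 186 and 149 CPM in members, against 3755 and 3307 CPM in mature B cells. Cd74 had 1732 against 13321 CPM, and Cd83, a marker of activation, 14.5 against 390.4 CPM. Genes outside the lists that ranked lowest included Bank1, an adaptor of the B cell receptor (29.6 against 589 CPM), and Gpr183, an oxysterol receptor that positions B cells (7.89 against 211 CPM). Fcrla and the BAFF receptors Tnfrsf13c and Tnfrsf13b were the 3 that did not meet the rule.

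**Figure D5:**
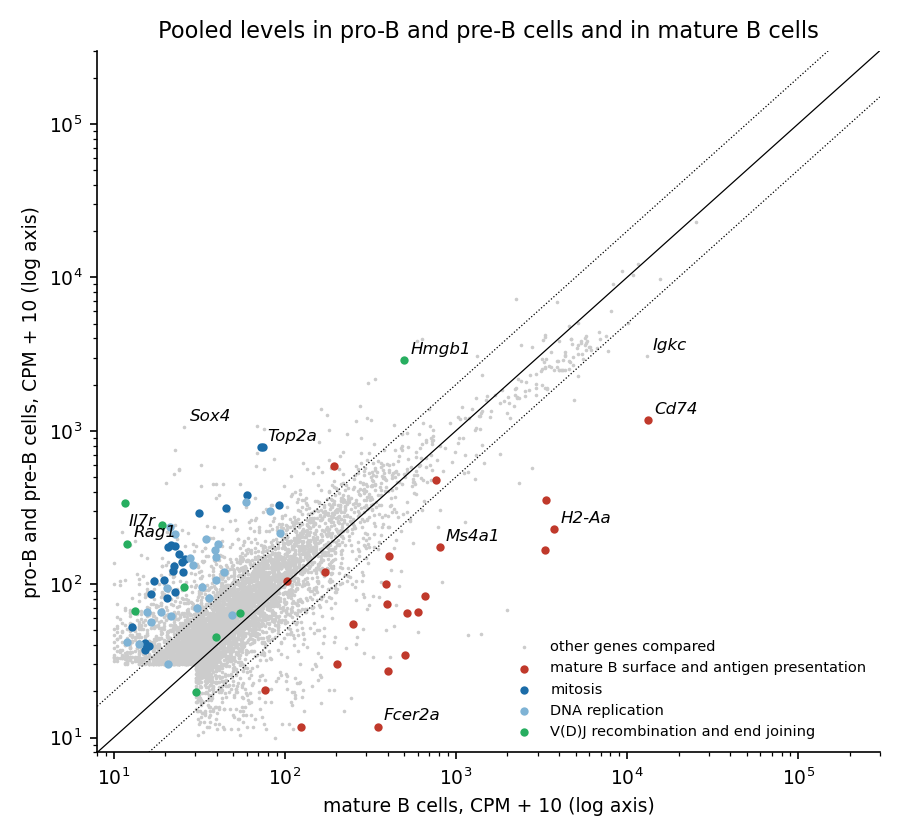
Pooled level of 6239 genes in the 401 members without Jchain-rich cells (vertical axis) and in 426 mature B cells (horizontal axis), in CPM + 10 on log axes, with the line of equal level and 2-fold lines dotted. Mitosis, replication and most recombination genes lay above the line, and antigen presentation genes such as Cd74, H2-Aa and Fcer2a lay below it.

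Division genes separated members from mature B cells as well. Of 24 replication genes, 15 were higher and 0 lower, with a median of 1.48, and without the Jchain-rich members 23 of 25 were higher with a median of 1.81. Of 24 mitosis genes, 20 were higher and 0 lower, with a median of 2.09. The anti-death gene Bcl2 was lower, with 14.8 against 118 CPM, while its relative Bcl2l1 (Bcl-xL) had 51.0 against 4.03 CPM and met the rule only without the Jchain-rich members. Other high-ranked genes outside the lists were Atp1b1, a sodium pump subunit (546 against 12.9 CPM), Tifa, an adaptor of TRAF signalling (409 against 14.1 CPM), the bromodomain gene Cecr2 (401 against 14.1 CPM) and the myosin light chain Myl4 (326 against 22.2 CPM). Gfra1, a receptor for GDNF, had 93.7 CPM in members and 0 UMIs in mature B cells.

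The immunoglobulin list turned on the Jchain-rich cells. Over 11 constant region and Jchain genes, 0 met the rule in either direction and the median log2 ratio was 1.50. Without the Jchain-rich members the median over 10 genes was -2.12, with Igkc, Iglc2 and Jchain lower. Those members were left out by their Jchain, so the lower Jchain follows in part from that choice. The mature B cells still held 3 cells with 801 to 1203 Jchain UMIs. Without Jchain-rich cells of either kind the median was -0.0347. Igkc stood at 3066 CPM in the 401 members and 13037 CPM in mature B cells, and Ighm at 4787 and 4553 CPM. Mature B cells of run 3 were high in Ighm (18965 CPM, against 1940.0 to 4566 CPM in their other runs).

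The members also differed from earlier lymphoid progenitors, taken as 173 cells with at least 1 UMI each of Dntt and Flt3, under 2 of Cd79a and none of Siglech. Of these, 100 were in run 6. Of 6277 genes, 362 (5.77%) were higher in members and 624 (9.94%) lower, with the sign held in runs 1, 2 and 6. Without the Jchain-rich members, and with runs 2 and 6, 594 of 6594 (9.01%) were higher and 475 (7.2%) lower. The shift of the median gene was -0.18 with them and 0.10 without.

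The B lineage programme stood out in members. The sets had been chosen apart on Cd79a, a gene of that programme, so part of this follows from the choice. Ebf1, which specifies the lineage, had 2238 CPM in members and 10.3 CPM in progenitors, a log2 ratio of 6.79. Pax5, which commits cells to it, had 385 CPM and 0 UMIs, and Pou2af1, a co-activator that binds Oct factors on the octamer, 346 CPM and 0 UMIs. Of 20 factors compared, 10 were higher and Spi1 was lower, and of 11 signalling genes, 7 were higher with a median of 2.92. Among these 7 was Vpreb2, whose reads may be shared with the rule gene Vpreb1. Lower in members were genes of stem and progenitor cells, Cd34 (2.30 against 396 CPM), Lmo2 (26.0 against 441 CPM), Kit (5.92 against 70.4 CPM) and the interferon-inducible Ifitm1 (15.5 against 1156 CPM). Replication genes were higher in 2 of 25 and lower in 0, and mitosis genes were higher in 9 of 24, or in 22 of 24 without the Jchain-rich members. In the Myc, glycolysis and growth list, 0 of 13 were higher and 6 lower, and without the Jchain-rich members 2 were lower, Npm1 and Slc3a2.

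Because the transgene of the series encodes a Toll-like receptor, endosomal receptors and interferon-induced genes were counted as well. Tlr7, the mouse sensor of single-stranded RNA, was lower in members, with 3.29 CPM (1.58 to 6.05, from 10 UMIs) against 31.0 CPM (24.5 to 38.8) in mature B cells. It was the only 1 of 6 compared genes of that list that met the rule. Mouse Tlr8 had 0 UMIs in members and in mature B cells, and Tlr9 had 4 and 6 UMIs. Of 28 interferon genes, 13 were compared with mature B cells and 0 were higher or lower, with a median of -0.41. Without the Jchain-rich members 1, Ly6a, was lower and the median was -0.21. These shares are small counts beside the 5.88% of all genes that were lower, and show nothing particular to either list. Against progenitors, 20 were compared, 1 (Ifi27l2a, 586 against 120.2 CPM) was higher and 9 were lower, among them Isg15 (22.0 against 74.1 CPM) and Ifit1 (1.97 against 50.3 CPM), with a median of -1.01, beside 9.94% of all genes that were lower in that comparison.

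Transcripts of other cell types were present in members. The sum of 8 neutrophil markers was 7545 CPM in members and 1556 CPM in mature B cells. A single member of run 3 held 62.0% of these UMIs, and without it the sum in members was 2906 CPM. By these transcripts that cell went against the label as well. It was kept among the 286 cells with Vpreb3 alone and the 126 cycling cells. Whether it was a doublet was not tested. The median was 27.1 marker UMIs per 10000 in members and 15.3 in mature B cells. S100a8 was found in 78.0% of thinned members, 57.6% of thinned mature B cells and 42.7% of thinned globin-rich cells. The sum of 8 erythroid markers was 3767 CPM in members and 9561 CPM in mature B cells, of which a single mature B cell of run 3 held 34.7%, and without it mature B cells stood at 6296 CPM. The median cell was in the opposite order, with 34.6 marker UMIs per 10000 in members and 21.8 in mature B cells. Of 8 T and NK cell markers, Cd3e, Trbc2 and Ncr1 were at 0 in members and the sum was 20.7 CPM, against 21.0 CPM in mature B cells. The part of these transcripts in the differences above was not tested.

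Members of run 6 stood apart in genes chosen after their values were seen. Among its 116 members without Jchain-rich cells, Fos, an early response gene, had 52.8 CPM and Klf2, a factor of quiescent lymphocytes, 314 CPM, while the other runs with 19 or more members held 629 to 1263 and 3053 to 5218 CPM. Pf4, a platelet chemokine, had 439 CPM in run 6 and 8.64 to 46.1 CPM in those other runs. Mature B cells of run 6 showed the same order, with 146 CPM of Fos and 706 CPM of Pf4. A Rag1 UMI was found in 9.48% of members in run 6, with a median depth of 2155.5 UMIs, against 40.9 to 53.3% in runs 1 to 4, with median depths of 3812 to 8031.5 UMIs. After thinning, it was found in 0 of 62 members of run 6, for which the exact interval reaches 5.78%, against 26.3 to 45.1% in runs 1 to 4. Cycling cells made up 47.4% of members in run 6, against 10.5 to 45.5% in runs 1 to 4. Thinning left out 54 of the 116 members of run 6 as too shallow, and 83.9% of the other 62 were cycling, against 5.26 to 28.6% in runs 1 to 4. The thinned Rag1 shares therefore set side by side cells with unlike cycling shares. In run 6, Rag1 stood at 6.36 CPM in cycling and 111 CPM in non-cycling members before thinning. The part of cycling in the thinned Rag1 share was not tested. Whether a library, a tissue or a genotype lies behind these runs cannot be told apart here.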

How the data were processed

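Single-cell RNA was measured in 8 libraries, whose cells the authors deposited side by side as raw UMI counts, not normalised (19669 genes, 132 of them at 0, by 24942 cells, with 248384567 UMIs and 500 to 83490 per cell). Per the submitters' processing notes, reads went through Cell Ranger 5.0.0 on mm10 and Seurat 3.1.5, and no filter on cells is stated there. No cell could be tied to a library, so no test between groups was made.

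Cells were chosen by UMI thresholds, with no clustering. No doublet caller was run, and doublets were not removed. UMIs were summed over each set of cells and scaled to CPM (Python 3.11.15, numpy 2.4.6, scipy 1.17.1, matplotlib 3.10.9). Levels have exact 95% Poisson intervals and shares of cells have Clopper-Pearson ones, and both cover counting error only. Shares were also taken with each cell thinned to 2000 UMIs, which left out 60 of the 401 members without Jchain-rich cells and 37 of 426 mature B cells. Log2 ratios had 10 CPM added to both levels, needed 20 CPM in either set and left out the genes that chose the sets. To count as apart, a gene had to differ at least 2-fold in the pool and keep its sign wherever a run held 20 or more cells of each set. The calculation was tested on simulated data. Globin-rich cells held at least 20% globin UMIs.

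The members and the gene lists were chosen with earlier results of these data known. Genes named were those of 13 lists, the 15 highest and 15 lowest against mature B cells, and the 10 highest and 10 lowest against progenitors and between cycling and non-cycling members, with at least 50 CPM in the higher set. Mitochondrial genes, predicted genes and receptor gene segments were passed over in this ranking. Also named were markers of other cell types. Myl10 and Arpp21 came from a further ranking, of the 86 cells against the 286 cells. Fos and Pf4 were picked in run 6 after their values were seen. The split by Vpreb1 and Igll1 and the Jchain-rich set were added after the values were seen. Promoter windows are from RefSeq (GRCm38.p6) and gene positions from GENCODE M21.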

Additional observations from a re-analysis of the deposited data

How the results depend on the processing

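The share of pro-B and pre-B cells (1.70% of cells) moved to 1.89% with a sum of at least 2 UMIs, 1.41% with at least 5, 0.345% with Vpreb3 not counted, 2.40% without globin-rich cells and 1.50% of cells thinned to 2000 UMIs. Leaving out 1 run at a time gave 1.40% (without run 4) to 1.91% (without run 5). The share of cycling members (31.3%) was 43.3% at 1 or more UMIs of Mki67 and Top2a, 25.9% at 4 or more, and 25.7% (without run 6) to 36.3% (without run 4) leaving out runs. Genes higher than in mature B cells (439) numbered 665 with immunoglobulin and globin genes left out of totals, 290 at a minimum of 50 CPM, 1188 with Vpreb3 not counted, 818 without Jchain-rich members and 803 without Jchain-rich cells of either kind, and 398 to 529 leaving out runs. Genes lower (342) numbered 515 without Jchain-rich members and centred on the median gene, and 296 to 414 leaving out runs. The higher share of all genes apart was 56.2%, and was 47.3% centred, 73.2% without immunoglobulin and globin genes in totals, 75.5% without Jchain-rich members, 46.0% without them and centred, and 71.3% with each cell weighted equally. The median of the immunoglobulin list (1.50) was -5.23 with Vpreb3 not counted, -1.17 without members holding globin or markers of other lineages, -2.12 without Jchain-rich members, -2.50 without them and centred, and -0.0347 without Jchain-rich cells of either kind. The cause of these moves was not tested beyond the cells and genes each setting drops. No named gene that met the rule against mature B cells changed sign in the settings where it was still compared. Signs were not checked in the setting without members holding globin or markers of other lineages. Named genes of the other comparisons were not put through them, apart from the comparison with progenitors without Jchain-rich members. The alternatives that leave out Jchain-rich cells or weight cells equally were chosen after seeing the data. Leaving out members with globin or markers of other lineages kept 20 members and no run with enough cells, so its counts could not be made. No paired analysis was possible because no cell could be tied to a library and the results come from no test. Depth limits low genes: with 3041008 UMIs, 3 UMIs in members are about 1 CPM.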
